A study of Mus musculus with 33 samples.

Results

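Matrix metalloproteinases (Mmp), the secreted ADAMTS proteases with thrombospondin motifs (Adamts) and the tissue inhibitors of metalloproteinases (Timp) were followed through the development of the mouse frontal bone of the calvaria, the front plate of the skull vault. Members were all genes of the deposited count table whose mouse symbol is Mmp, Adamts or Timp followed by the number of the family member. The table held 46 such genes among 55401, of which 23 were Mmp, 19 Adamts and 4 Timp genes. Polyadenylated RNA was sequenced at 11 stages, in steps of 0.5 days from embryonic day 8.5 (E8.5) to E12.5 and then at E13.5 and E14.5, with 3 libraries per stage and 33 in all. The labels give the same tissue for every library and name no treatment. The sources used here do not give strain, sex or genotype, nor say if a stage's 3 libraries stem from different embryos or pools. The p-values therefore speak to the spread among libraries, which may be technical.

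Metalloproteinases are zinc enzymes made as inactive precursors, and they cleave collagens, proteoglycans and other proteins outside the cell. Some are secreted and some are held in the cell membrane, and the membrane enzyme Mmp14 activates the gelatinase Mmp2 at the cell surface with Timp2 as an adaptor. The ADAMTS proteases include the enzymes that trim the ends of procollagens so that fibrils can form, and enzymes that cut the large proteoglycans aggrecan and versican. Timp proteins bind the active site of these enzymes. In membrane bone, Mmp2 and Mmp14 are known for remodelling of the collagen matrix, and Mmp9 and Mmp13 for the work of osteoclasts and osteoblasts.

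Column totals ran from 14516518 to 19964404 counts, and 20073 genes had enough counts to be tested. Levels are given in CPM, the counts of a gene relative to the scaled library size. The bone markers were low in the early libraries: the summed level of 6 osteoblast markers went from 46.2 CPM in the E8.5 libraries to 609 CPM by E14.5, Dmp1 had no count at E8.5, and neither Ibsp nor Dmp1 had one at E9 or E9.5. The osteoblast sum was still 52.3 CPM at E11.5 and 31 CPM at E12.5, and it was 148 CPM at E13.5. The tissue label was thus not matched by defining bone markers at the early stages, nor by a high osteoblast sum up to E12.5. Other cell types changed as well. Between E8.5 and E14.5 the summed markers went from 192 to 2393 CPM for mesenchyme, from 2.1 to 276 CPM for macrophages, from 51.5 to 1094 CPM for epidermis, from 3.48 to 242 CPM for skeletal muscle and from 316 to 101 CPM for neural progenitors. Fewer cells of a type and less RNA per cell cannot be told apart in such bulk libraries, and the part of these changes in the results was not tested. The E12 libraries stood apart: their summed red cell markers ran from 10752 to 28807 CPM, and the members with 5 kb or more of exon had a median log2 difference of -1.18 from E11.5, against -0.12 for shorter ones. Library c of E13.5 also had low values of some long genes (Timp3 at 58.2, 65.8 and 35.7 CPM in libraries a, b and c). Other long genes were not low there, such as Adamts2 (42.7, 43.6 and 43.5 CPM) and Adamts10 (125, 116 and 131 CPM). The 4 main contrasts compare neither E12 nor E13.5, whose libraries still enter the fit through the spread, the filter and the scaling. E12.5, which is in 2 of these contrasts, did not lie between its neighbours for some members: Adamts2 had 19.9, 8.98 and 43.3 CPM and Mmp24 34.2, 9.23 and 26 CPM at E11.5, E12.5 and E13.5. Whether the samples account for this was not tested.

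The genes grouped here as interstitial collagenases (Mmp1a, Mmp1b, Mmp8 and Mmp13), which are among the enzymes that can cut fibrillar collagen, were all but absent. They belong to a cluster of 10 Mmp genes on chromosome 9 (chr9:7272514-7699585, GRCm38): Mmp13, Mmp12, Mmp3, Mmp1a, Mmp1b, Mmp10, Mmp8, Mmp27, Mmp20 and Mmp7. The total over all 33 libraries ran from 0 counts for Mmp10, a stromelysin, to 82 for Mmp3, another stromelysin, and came to 209 for the whole cluster. A count of 0 over all libraries allows a level of up to 0.00521 CPM, which covers counting error only. Mmp13, the collagenase of osteoblasts and late cartilage cells, had 22 counts in all, 12 of them at E14.5. Mmp8, the neutrophil collagenase, had none from E8.5 to E9.5, then 1 to 12 counts per stage from E10 to E13.5 and 27 at E14.5. Mmp1a and Mmp1b, the mouse relatives of the human interstitial collagenase, had 2 counts and 1 count. Mmp20, the enamel protease, had 1 count, and Mmp7, a small epithelial enzyme, had 6. Mmp12, the macrophage elastase, had 12 counts, 8 of them at E11, and Mmp27 had 5. Only Mmp3 of the cluster passed the filter on low counts. Without that filter Mmp8 and Mmp13 were higher at E14.5 than at E8.5 (adjusted p = 0.000468 and 0.0398), on the counts given above and with none at E8.5, and Mmp8 also differed over all stages (adjusted p = 3.24e-06), while Mmp13 did not (adjusted p = 0.151).

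The promoters of this cluster differed in their letters from those of the other matched members, and 3 of them are shown beside those of Mmp14 and Adamts2, which were expressed in all 33 libraries. The windows are 120 bases long, 5′ to 3′ on the plus strand, from RefSeq on GRCm38.p6. Capitals mark TGANTCA, whose letters include the AP-1 consensus, TATAAA, and GGGCGG, the core of the Sp1 consensus, on either strand.
Mmp3 (chr9:7445702-7445821): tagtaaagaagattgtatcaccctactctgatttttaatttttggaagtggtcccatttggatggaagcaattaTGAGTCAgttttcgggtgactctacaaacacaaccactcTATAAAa
Mmp13 (chr9:7272394-7272513): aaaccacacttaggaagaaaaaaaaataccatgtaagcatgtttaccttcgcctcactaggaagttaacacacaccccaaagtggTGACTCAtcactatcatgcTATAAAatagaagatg
Mmp10 (chr9:7502222-7502341): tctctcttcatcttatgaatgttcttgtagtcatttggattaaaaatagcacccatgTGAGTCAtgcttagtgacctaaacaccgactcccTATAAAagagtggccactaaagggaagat
Mmp14 (chr14:54431478-54431597): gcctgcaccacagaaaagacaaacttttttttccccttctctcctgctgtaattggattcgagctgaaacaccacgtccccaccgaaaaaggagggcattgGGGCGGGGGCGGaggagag
Adamts2 (chr11:50601965-50602084): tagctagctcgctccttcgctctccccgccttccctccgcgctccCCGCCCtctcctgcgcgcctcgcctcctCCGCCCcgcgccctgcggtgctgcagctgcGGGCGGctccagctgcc

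RefSeq promoter windows were matched for 32 of the 46 members, including all 10 of the cluster. The first listed window of each gene was counted, over the 250 bases before the start and on both strands. TGANTCA stood in 7 of 10 cluster promoters (70%), in 0 of the 22 other matched members and in 6.87% of all 27025 windows. A second listed window of Mmp12 held it too and was not counted. TATAAA stood in 7 of 10 cluster promoters, in 9.09% of the other matched members and in 13% of all windows. GGGCGG stood in 0 of 10 cluster promoters, in 72.7% of the other matched members and in 32.9% of all windows. A match is a description of the letters and not a binding site.

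Outside the cluster most of the family was expressed. In all, 35 of the 46 genes were tested, and the other 11 were Adamts13, the protease of von Willebrand factor (63 counts in all), Mmp21, which is known from left-right patterning (37 counts), and all of the cluster except Mmp3. All 35 tested genes differed over the 11 stages, beside 95.3% of all tested genes, so a change over the course does not set them apart. Highest stage means lay late: 15 of the 35 genes peaked at E14.5 and 8 at E13.5. Among all tested genes, 19.9% peaked at E14.5 and 8.13% at E13.5.

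**Figure D1:**
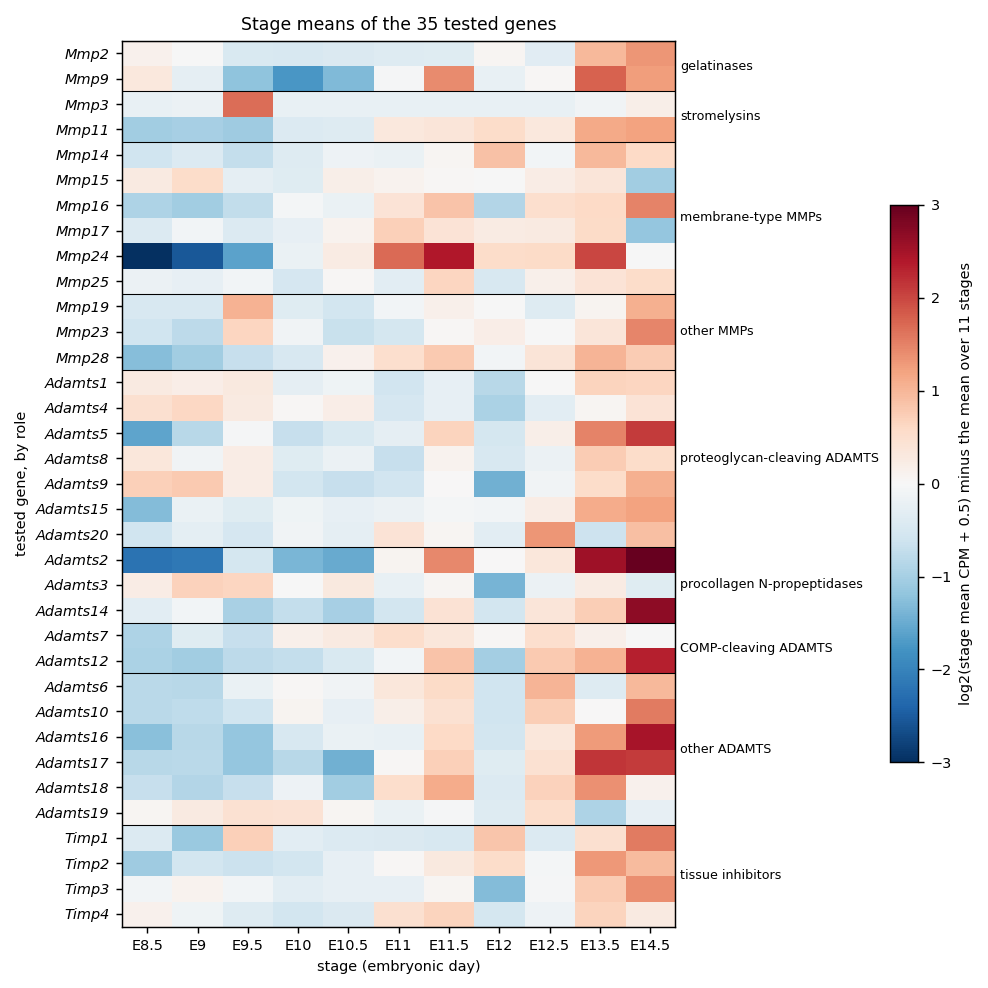
Stage means of the 35 tested genes, grouped by role, as log2(stage mean CPM + 0.5) minus the gene's mean over the 11 stages, columns being stages in order and colour the difference on the log2 scale. Red is most frequent in the last columns, where 8 genes peak at E13.5 and 15 at E14.5, and Mmp3 has its red cell at E9.5.

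The first contrast, E14.5 against E8.5, spans the course. Of the 35 tested genes 27 rose (77.1%), beside 41.1% of all tested genes, and 3 fell (8.57%), beside 33.5% of all tested genes. The median log2 fold change was 1.82 over the 35 genes and 0.16 over all genes. By family, 11 of 13 tested Mmp genes rose and 2 fell, 13 of 18 Adamts genes rose and 1 fell, and 3 of 4 Timp genes rose. The genes that fell were Mmp15, Mmp17 and Adamts19, and those that did not pass were Adamts3, Adamts4, Adamts8, Adamts9 and Timp4. With libraries scaled by their totals alone the median of all genes moved from 0.16 to 0.59 and only 1 member, Mmp15, fell.

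**Figure D2:**
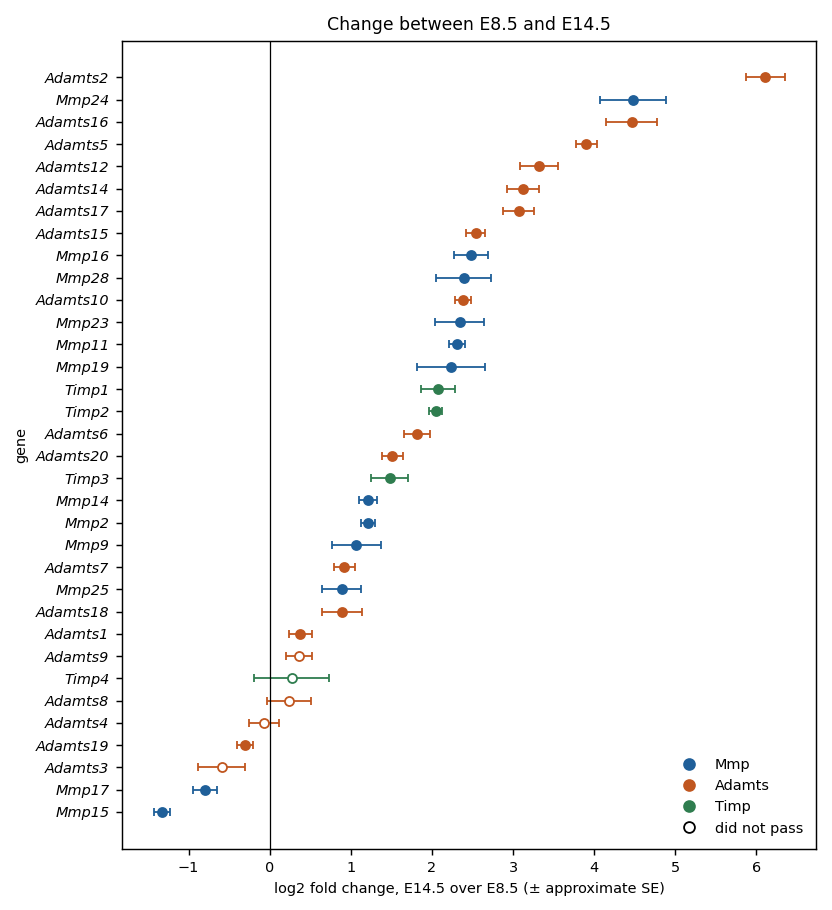
Log2 fold change between E8.5 and E14.5 for the tested genes other than Mmp3 (no count at E8.5), points coloured by family, with bars for the approximate standard error and open points for genes that did not pass at an adjusted p of 0.05. Adamts2 stands at the top with 6.11, and Mmp15 and Mmp17 lie at the bottom with -1.33 and -0.80.

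The 3 stage intervals differed in what the family did. From E8.5 to E10.5, 15 genes rose (42.9%, background 28.2%) and 7 fell (20%, background 21.3%), with a median of 0.08 beside 0.09 for all genes. From E10.5 to E12.5, 16 rose (45.7%, background 18.8%) and 1 fell (2.86%, background 17.2%), with a median of 0.47 beside 0.03. From E12.5 to E14.5, 23 rose (65.7%, background 25.3%) and 7 fell (20%, background 28.6%), with a median of 0.91 beside -0.03. The 7 that fell in the first interval were Adamts1, Adamts9, Adamts14, Adamts17, Mmp2, Mmp9 and Timp4. The Timp4 call rests on few counts and was lost without library b of E8.5 (adjusted p = 0.457), without any 1 of the E10.5 libraries, with library totals alone and with the replicate block (adjusted p = 0.054), and 4 genes fell without library b of E10.5. The 1 that fell in the second was the aggrecanase Adamts4 (log2 fold change -0.54, adjusted p = 0.0188), a call lost when library a of E10.5 or library a or b of E12.5 was left out. With library totals alone 4, 0 and 4 members fell in the 3 intervals. Among all 20073 tested genes, those lower then went from 4272, 3444 and 5736 to 2729, 2215 and 4338. With the gene length trend removed 12 members fell in the first interval, and all genes lower there went from 4272 to 6595. These shifts were thus not confined to the members. The 7 that fell in the last were Mmp15, Mmp17, Mmp24, Adamts7, Adamts18, Adamts19 and Adamts20. With DESeq2 5 fell, and Mmp24 and Adamts18 did not pass (adjusted p = 0.0556 and 0.0588). With E11.5 in place of E12.5, Adamts20 was higher at E14.5 (0.86).

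The gelatinases cleave denatured collagen and basement membrane collagen. Mmp2 (chr8:92827291-92853420), which mesenchymal cells secrete, had the highest level per length of the family at both ends of the course. It stood at 93.4, 87.5 and 84.8 CPM in the 3 libraries of E8.5, at 62.7, 58.9 and 58.0 CPM at E10.5 and at 224, 198 and 191 CPM at E14.5. The 3 stages do not overlap, and the course has a trough from E9.5 to E12.5, apart from the E12 libraries (67.6, 92.7 and 92.3 CPM). Mmp2 fell by 0.57 on the log2 scale from E8.5 to E10.5 (SE 0.09, adjusted p = 6.13e-06) and rose by 1.67 from E12.5 to E14.5 (SE 0.09, adjusted p = 1.54e-15). The larger step of the rise, 1.32, came between E12.5 and E13.5, when the mean went from 64.2 to 160 CPM.

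Mmp9, the gelatinase of osteoclasts and other myeloid cells, had a different course. It read 1.76, 1.63 and 2.81 CPM at E8.5, 0.0623, 0.175 and 0.109 CPM at E10, 4.63, 5.65 and 4.74 CPM at E11.5 and 4.6, 4.5 and 4.07 CPM at E14.5. The E10 libraries lie below those of the other 3 stages, and the E11.5 and E14.5 libraries lie above those of E8.5. It fell by 2.69 on the log2 scale to E10.5 (SE 0.43, adjusted p = 5.29e-06) and then rose by 2.33 to E12.5 (SE 0.44, adjusted p = 8.29e-05). Summed markers of osteoclasts (7 genes) were 11.8 CPM at E8.5, 24.5 CPM at E11.5 and 85.9 CPM at E14.5, with Dcstamp and Atp6v0d2 at 0 at E8.5 and E11.5. Of the 7 osteoclast genes 4 were tested, and 2 rose and 2 fell from E8.5 to E14.5. Summed macrophage markers (8 genes) were 2.1, 130 and 276 CPM at E8.5, E11.5 and E14.5. At E10, where Mmp9 was lowest, the osteoclast and macrophage sums were 25.6 and 65.3 CPM, both above E8.5. The part of these cells in the Mmp9 course was not tested.

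Mmp11, stromelysin 3 of stromal cells, is activated inside the cell by furin and climbed in steps. Its libraries read 12.7, 11.8 and 12.2 CPM at E8.5, 20.3, 19.0 and 19.5 CPM at E10.5, 33.1, 29.0 and 34.8 CPM at E12.5 and 62.6, 58.9 and 60.5 CPM at E14.5. No library of one of these stages reaches those of the next. It rose in each of the 3 intervals, by 0.68, 0.72 and 0.91 on the log2 scale (adjusted p = 1.51e-06, 3.78e-07 and 9.7e-10).

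The membrane-type enzymes divided. Mmp14, the activator of Mmp2, read 73.9, 69.7 and 64.3 CPM at E8.5, 189, 184 and 252 CPM at E13.5 and 165, 156 and 161 CPM at E14.5. These stages do not overlap, and its highest mean was at E13.5, while that of Mmp2 was at E14.5. From E8.5 to E14.5 Mmp14 rose by 1.21 on the log2 scale (SE 0.11, adjusted p = 3.65e-11), the same size as Mmp2 (1.21, SE 0.09, adjusted p = 5.8e-13). Mmp14 rose already to E10.5 (0.44, adjusted p = 0.00128), when Mmp2 fell. This early rise of Mmp14 did not pass with the gene length trend removed (0.24, adjusted p = 0.11). Mmp16, its relative with a similar membrane anchor, read 8.42, 11.7 and 11.3 CPM at E8.5 and 57.6, 62.5 and 56.3 CPM at E14.5. It rose in all 3 intervals (0.76, 0.71 and 1.01, adjusted p = 0.00321, 0.00495 and 4.05e-05).

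Mmp15, another enzyme with a transmembrane segment, went the other way. Its libraries read 71.8, 67.1 and 70.7 CPM at E8.5, 77.2, 72.7 and 74.2 CPM at E13.5 and 28.6, 26.3 and 28.7 CPM at E14.5. It also had an earlier low, with 46.3, 50.7 and 47.3 CPM at E9.5 and 41, 47.9 and 45.2 CPM at E10. The E13.5 libraries lie above those of E8.5, and the final drop lies in the last day, a step of -1.42 (SE 0.10, adjusted p = 1.4e-12). Mmp17, which is held by a lipid anchor, did the same from 20.1, 19.1 and 19.9 CPM at E13.5 to 6.95, 4.18 and 5.54 CPM at E14.5 (step of -1.82, SE 0.15, adjusted p = 1.34e-11). Scaled by library totals alone, the E14.5 to E8.5 difference of Mmp17 was -0.37 (adjusted p = 0.0511). Mmp25, the other enzyme with a lipid anchor, stayed below 5 CPM and rose by 0.89 over the course (adjusted p = 0.00186).

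Mmp24, the membrane enzyme of the nervous system, had a course unlike the rest. It read 0.281, 0.213 and 0.292 CPM at E8.5, 36.9, 34.1 and 31.5 CPM at E11.5, 9.12, 8.67 and 9.91 CPM at E12.5, 25.8, 28.0 and 24.3 CPM at E13.5 and 6.31, 5.46 and 6.32 CPM at E14.5. None of these stages overlaps with another. It rose by 4.74 on the log2 scale to E10.5 (SE 0.40, adjusted p = 3.66e-11) and fell by 2.11 in the last day (SE 0.22, adjusted p = 3.72e-09). The summed level of 5 neuron markers (Dcx, Elavl3, Tubb3, Stmn2 and Snap25) was 113 CPM at E8.5, 2120 CPM at E11.5, 1238 CPM at E12.5, 1622 CPM at E13.5 and 479 CPM at E14.5, with none of them at 0. At E11 and E12 the marker sum was 2050 and 2062 CPM, both above E13.5, while Mmp24 had 21 and 9.07 CPM, both below E13.5. The part of neurons in the Mmp24 values was not tested. Some counts could come from the antisense gene BC029722, which shares 637 exonic bases with it, since the strand setting of the counting is not known.

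The remaining tested Mmp genes were low. Mmp28, epilysin of skin and nerve, read 1.4, 0.994 and 1.46 CPM at E8.5 and 7.43, 6.26 and 6.77 CPM at E14.5 (2.39, SE 0.34, adjusted p = 3.55e-07). Mmp23, an enzyme without the usual haemopexin domain, read 2.18, 1.85 and 1.52 CPM at E8.5 and 9.46, 7.6 and 10.8 CPM at E14.5 (2.34, SE 0.30, adjusted p = 5.07e-08). Mmp19 had 2.46, 2.41 and 3.02 CPM at E14.5, above its 3 libraries of E8.5 (2.23, SE 0.42, adjusted p = 2.62e-05). Mmp23 and Mmp19 each had an earlier high at E9.5, described with the genes of that stage.

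**Figure D3:**
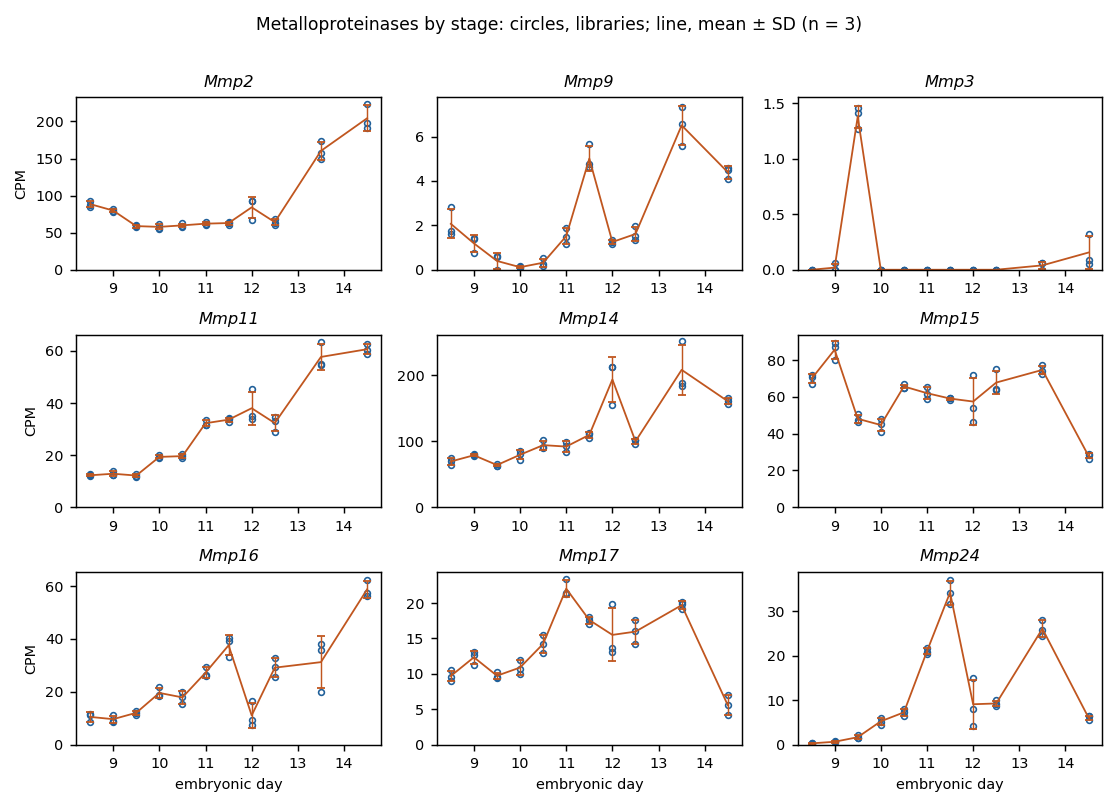
Levels of 9 Mmp genes in CPM against embryonic day, circles for libraries and the line for the stage mean with its SD (n = 3). Mmp3 has its peak at E9.5, Mmp2 has a trough before it rises to 204 CPM, Mmp15 and Mmp17 drop in the last day, and Mmp24 peaks at E11.5 and again at E13.5.

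Among the ADAMTS proteases, the procollagen N-propeptidases Adamts2 and Adamts14, which cut the amino-terminal extension from fibrillar procollagens, rose late. Adamts2 (chr11:50602084-50807573) read 1.33, 1.14 and 0.818 CPM at E8.5, 8.95, 8.62 and 9.37 CPM at E12.5, 42.7, 43.6 and 43.5 CPM at E13.5 and 81.0, 73.0 and 71.0 CPM at E14.5. The 4 stages do not overlap. Its log2 fold change over the course, 6.11 (SE 0.24, adjusted p = 2.26e-19), was the largest of the family, from a mean of 1.1 ± 0.26 to 75 ± 5.28 CPM (SD, n = 3).

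Adamts14 read 4.63, 4.26 and 4.21 CPM at E8.5, fell to 2.86, 1.8 and 2.88 CPM at E10.5, and read 10.2, 7.9 and 10.7 CPM at E13.5 and 41.9, 36.2 and 35.7 CPM at E14.5. Of its rise of 2.40 since E12.5, 1.98 fell in the last day (SE 0.19, adjusted p = 4.17e-10), a day in which Adamts2 rose by 0.79. Adamts3, the third enzyme of the group, which also activates the lymphatic growth factor VEGF-C, read 18.5, 18.4 and 19.9 CPM at E8.5 and 13.3, 11.6 and 12.9 CPM at E14.5. These ends do not overlap, but the difference of -0.59 did not pass (adjusted p = 0.0648). A fall did pass under some alternatives. Among them were removal of the gene length trend (-0.77, adjusted p = 0.00805) and leaving out E11.5, E12 and E13.5 (-0.57, adjusted p = 3.75e-06).

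Among the procollagen genes, Col1a1 rose by 6.70, Col1a2 by 4.38 and Col3a1 by 2.62 on the log2 scale from E8.5 to E14.5 (adjusted p = 1.97e-22, 6.25e-24 and 6.8e-21), and Col2a1 fell by 0.71 (adjusted p = 6.83e-05). The enzymes for the other end, the carboxy-terminal proteinases of the tolloid group and their enhancers, rose in 5 of 5 genes, with Bmp1 at 2.59 and the enhancer Pcolce at 2.33 (adjusted p = 3.1e-20 and 6.09e-18).

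The proteoglycan-cleaving group held 7 genes, and over the course 4 rose (57.1%, beside 41.1% of all tested genes) and 3 did not pass, with a median log2 fold change of 0.38. Adamts5, the main aggrecanase of cartilage, read 2.88, 2.56 and 2.75 CPM at E8.5, 10.3, 10.4 and 10.4 CPM at E12.5 and 37.8, 41.3 and 43.0 CPM at E14.5. The stages do not overlap, and Adamts5 rose in each of the 3 intervals, by 3.90 in all (SE 0.13, adjusted p = 6.27e-21). Adamts4, the other aggrecanase, read 23.5, 25.8 and 20.8 CPM at E8.5, 13.0, 11.9 and 14.6 CPM at E12.5 and 21.5, 20.6 and 24.5 CPM at E14.5. Its ends overlap, with a difference of -0.07 (SE 0.18, adjusted p = 0.716), while the last interval rose by 0.76 (adjusted p = 0.000683). The transcript of aggrecan, Acan, rose by 5.10 and that of versican, Vcan, by 1.57 (adjusted p = 3.38e-18 and 1.14e-09).

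Adamts9 and Adamts20 are versican proteases, Adamts20 being known from the belted coat colour mutant. Adamts9 had the shape of a bowl: 59.7, 67.7 and 67.4 CPM at E8.5, 24.8, 25.7 and 22.6 CPM at E10.5 and 85.8, 84.6 and 79.4 CPM at E14.5. It fell by 1.41 on the log2 scale to E10.5 (SE 0.17, adjusted p = 5.22e-08) and rose by 1.18 from E12.5 to E14.5 (SE 0.17, adjusted p = 6.38e-07), and its ends differed by 0.36 (adjusted p = 0.0505), a value that passed under some alternatives. Adamts20 read 21.3, 19.3 and 19.5 CPM at E8.5, 72.2, 76.9 and 80.7 CPM at E12.5 and 58.4, 55.6 and 57.6 CPM at E14.5, so it peaked before the end. It rose by 1.59 from E10.5 to E12.5 (SE 0.13, adjusted p = 1.48e-11).

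Neighbouring genes of this group differed. Adamts1 (chr16:85793827-85803113) and Adamts5 (chr16:85856173-85901828) lie side by side on one strand. Adamts1 read 49.0, 45.7 and 50.2 CPM at E8.5 and 65.4, 61.5 and 62.0 CPM at E14.5, a rise of 0.38 (adjusted p = 0.0136) that did not pass without library b of E8.5 or with the gene length trend removed (0.20, adjusted p = 0.12). Adamts15 (chr9:30899155-30922452) and Adamts8 (chr9:30942562-30963838) lie on opposite strands of chromosome 9. Adamts15 rose from 9.97, 11.9 and 11.3 CPM to 62.6, 63.8 and 67.0 CPM (2.54, SE 0.12, adjusted p = 1.13e-17). Adamts8, at 3.51, 2.27 and 2.34 CPM and 3.48, 2.84 and 3.25 CPM, overlapped between the ends (0.24, adjusted p = 0.417). The differences between neighbours were not tested.

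Adamts7 and Adamts12, which cleave the cartilage protein COMP, had different courses. Adamts12 read 14.0, 12.1 and 13.9 CPM at E8.5, 44.1, 45.9 and 45.9 CPM at E12.5 and 139, 136 and 125 CPM at E14.5. It rose by 3.32 in all (SE 0.23, adjusted p = 8.31e-14). Adamts7 read 23.9, 27.3 and 24.7 CPM at E8.5, 60.4, 59.9 and 55.9 CPM at E10.5 and 54.4, 44.8 and 44.8 CPM at E14.5. It rose early, by 1.21 to E10.5 (SE 0.13, adjusted p = 8.9e-09), and fell by 0.52 from E12.5 to E14.5 (adjusted p = 0.00109). Comp itself had 0.309 CPM at E8.5 and rose by 2.68 (adjusted p = 2.25e-05).

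Of the other ADAMTS proteases, Adamts10, Adamts6 and Adamts17 act around fibrillin microfibrils. Adamts10 was second only to Mmp2 per length at E14.5. It read 71.3, 68.7 and 68.4 CPM at E8.5, 211, 180 and 224 CPM at E12.5 and 399, 349 and 337 CPM at E14.5, a rise of 2.38 (SE 0.10, adjusted p = 5.6e-19). Adamts17 read 4.56, 4.54 and 2.98 CPM at E8.5 and 38.4, 30.9 and 31.9 CPM at E14.5 (3.07, SE 0.19, adjusted p = 5.89e-15). Adamts6 read 11.9, 12.4 and 14.0 CPM at E8.5 and 43.4, 44.9 and 47.1 CPM at E14.5 (1.82, SE 0.16, adjusted p = 2.59e-11), and its E12.5 level of 46.6 CPM was not distinguishable from that at E14.5 (adjusted p = 0.825).

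Adamts16, Adamts18 and Adamts19 form the rest of that group, with less known about their substrates. Adamts16 went from 0.562, 0.71 and 0.701 CPM to 16.6, 13.3 and 14.2 CPM (4.46, SE 0.32, adjusted p = 2.05e-13). Adamts18 had its highest mean at E13.5 and read 3.51, 2.98 and 4.09 CPM at E8.5 and 6.95, 6.37 and 6.36 CPM at E14.5 (0.89, adjusted p = 0.00211). Adamts19 read 16.7, 16.6 and 15.8 CPM at E8.5 and 12.8, 13.7 and 13.4 CPM at E14.5, a difference of -0.30 (adjusted p = 0.00578) that became 0.13 (adjusted p = 0.326) with library totals alone.

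**Figure D4:**
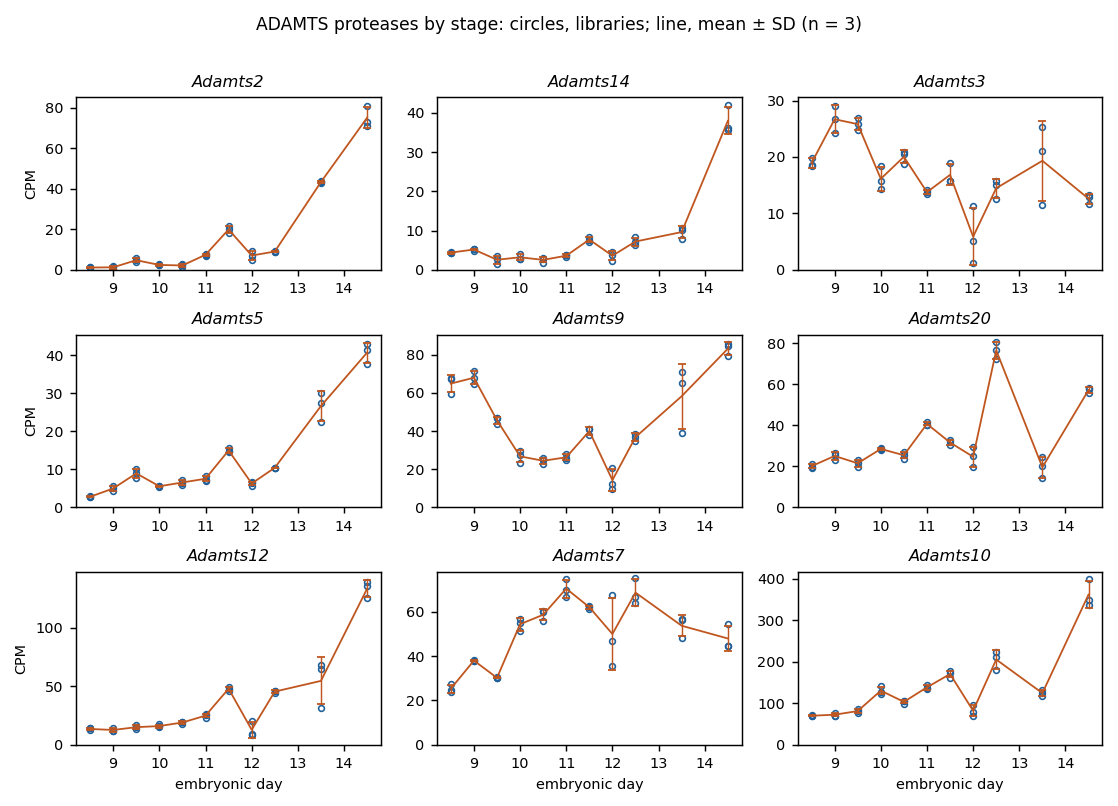
Levels of 9 Adamts genes in CPM against embryonic day, circles for libraries and the line for the stage mean with its SD (n = 3). Adamts2, Adamts14, Adamts12 and Adamts10 are highest at E14.5, Adamts9 falls and rises again, and Adamts20 is highest at E12.5.

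Of the 4 inhibitors, Timp2 (chr11:118301069-118355740), the partner of Mmp14 in Mmp2 activation, had the highest level per length at E14.5. Its libraries read 26.8, 27.8 and 28.7 CPM at E8.5, 50.8, 47.1 and 52.0 CPM at E10.5, 154, 147 and 142 CPM at E13.5 and 113, 115 and 118 CPM at E14.5. These stages do not overlap, and the last day brought a fall of 0.35 on the log2 scale (adjusted p = 0.000131). Over the course it rose by 2.05 (SE 0.08, adjusted p = 2.91e-20), and the largest step was 1.37 between E12.5 and E13.5 (adjusted p = 2.58e-15).

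Timp1 (chrX:20870166-20874735), an inhibitor induced in many tissues by growth factors and injury, was highest at the end and had earlier highs at E9.5 and in the E12 libraries (16.1, 11.2 and 7.27 CPM). It read 4.56, 4.4 and 4.74 CPM at E8.5, 10, 10.7 and 11 CPM at E9.5, 4.36, 4.36 and 5.04 CPM at E12.5 and 19.1, 20.3 and 18.2 CPM at E14.5. E9.5 and E14.5 stand above the other 2 stages without overlap. The gain from E12.5 to E14.5 was 2.07 (SE 0.20, adjusted p = 5.66e-10). Timp3, the inhibitor bound to the matrix that also blocks ADAMTS aggrecanases, read 28.0, 30.3 and 30.7 CPM at E8.5, 30.6, 31.1 and 29.8 CPM at E12.5 and 84.6, 80.6 and 83.0 CPM at E14.5. Its differences of -0.17 and 0.21 to E10.5 and on to E12.5 did not pass (adjusted p = 0.556 and 0.506), but values of -0.21 and 0.22 passed when E12 and its neighbours E11.5 and E13.5 were left out (adjusted p = 0.0111 and 0.00862). It then rose by 1.44 (SE 0.22, adjusted p = 2.81e-06). Timp4, known from heart and fat, stayed at or below 1.21 CPM in every library, and its ends overlapped (0.27, SE 0.46, adjusted p = 0.595).

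Timp1, Timp3 and Timp4 lie inside the synapsin genes Syn1, Syn3 and Syn2 on the opposite strand. Timp3 shares 1733 exonic bases (21.3% of its exons) with its host, so reads there cannot be told apart without the strand.

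**Figure D5:**
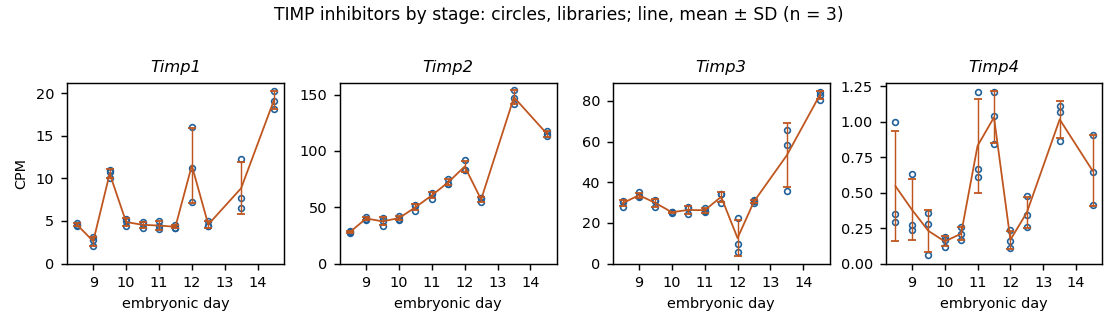
Levels of the 4 Timp genes in CPM against embryonic day, circles for libraries and the line for the stage mean with its SD (n = 3). Timp1 is high at E9.5 (10.6 CPM) and E12 with its highest mean at E14.5 (19.2 CPM), Timp2 peaks at E13.5 (147 CPM), and Timp4 stays at or below 1.21 CPM.

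Some members were higher in the 3 libraries of E9.5 than on both sides. Mmp3, a stromelysin that activates other Mmp precursors, had 24, 23 and 23 counts in the E9.5 libraries, 1 count in all at E9 and none from E10 to E12.5. It then had 2 counts at E13.5 and 9 at E14.5. The 70 counts of E9.5 were at least 20.9-fold above E8.5 and at least 23.7-fold above E10, each bound taken against 3 counts over the stage. The step from E9 to E9.5 passed (adjusted p = 0.000129), and so did the step to E10 (adjusted p = 4.26e-05). Mmp3 passed the filter on low counts only through its E9.5 libraries, with at most 6 counts in any other. These p-values are therefore no independent support for the peak. At E14.5 Mmp3 was at least 2.3-fold above E8.5, from libraries of 6, 1 and 2 counts, a call lost without library a of E14.5 (adjusted p = 0.0627).

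Timp1 had the same shape, with means of 2.63, 10.6 and 4.88 CPM at E9, E9.5 and E10 and log2 steps of 2.01 and -1.11 (adjusted p = 7.82e-08 and 0.000126). Mmp19, an enzyme of vessels and skin, read 0.648, 0.287 and 0.753 CPM at E9, 2.53, 2.29 and 2.87 CPM at E9.5 and 0.436, 1.35 and 0.218 CPM at E10 (steps of 2.20 and -1.94, adjusted p = 0.000241 and 0.000514). Mmp19 shares 789 exonic bases with Tmem198b on the opposite strand. Adamts2 went from 1.2 to 4.71 and back to 2.37 CPM (steps of 1.92 and -0.98, adjusted p = 4.3e-06 and 0.00263), and Adamts5 from 4.91 to 8.91 and back to 5.5 CPM (0.86 and -0.69, adjusted p = 1.02e-05 and 0.000108). Mmp23 went from 1.56 to 5.04 and 2.83 CPM. Its first step of 1.72 passed (adjusted p = 0.000165), while the second of -0.83 (adjusted p = 0.0332) did not pass when any of 5 libraries was left out or with library totals alone. These 6 genes were named after their values were seen. Of the 35 tested members 1 had its highest mean at E9.5, beside 3.79% of all tested genes. The share of all genes that rose to E9.5 and fell to E10 is not given here, so the pattern is not shown to be particular to the family.

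Markers of other cells moved at the same stage. The summed level of 6 mural cell markers (Rgs5, Pdgfrb, Cspg4, Acta2, Tagln and Myh11) was 103 CPM at E9, 305 CPM at E9.5 and 111 CPM at E10. The mast cell genes Cpa3, Mcpt4, Tpsb2 and Cma1 were all at 0 at E9 and at E10, and none of them was at 0 at E9.5. The sum of the 5 mast cell markers, which include Kit, had no peak there, with 67.7, 52.8 and 38.5 CPM at E9, E9.5 and E10. The sum of macrophage markers went from 3.04 to 41.6 and 65.3 CPM, and that of mesenchyme markers from 225 to 400 and 370 CPM. The part of these cells in the E9.5 values was not tested. Other members had no such peak: Mmp2, Mmp9, Mmp15, Adamts9 and Adamts14 fell from E9 to E9.5, by 0.44, 1.57, 0.83, 0.58 and 1.00 on the log2 scale.

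Levels were set side by side per length, as CPM per kb of exon. At E8.5 the family was led by Mmp2 with 26.3 ± 1.32, Mmp15 with 12.9 ± 0.459 and Mmp14 with 11.6 ± 0.804 (SD, n = 3). At E14.5 Mmp2 led with 60.6 ± 5.12, followed by Adamts10 with 43.8 ± 3.97, Timp2 with 29.6 ± 0.6 and Mmp14 with 26.9 ± 0.822, while Mmp11 with 21.8 and Timp1 with 21.6 were within each other's spread. The summed level of the Mmp genes was 60.3 CPM per kb at E8.5, 61 at E10.5, 71.6 at E12.5, 136 at E13.5 and 132 at E14.5. That of the Adamts genes was 44.3, 51.3, 80.9, 79.3 and 134 at the same stages, so the Adamts sum gained in the last day, when the Mmp sum did not. This order was not tested, and it rests on E13.5, where library c is low for some long genes. The Timp sum was 16, 21.2, 23.6, 54.5 and 61.5.

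The ratio of the Timp sum to the Mmp sum, which does not depend on the scaling between libraries, was 0.266 ± 0.0185 at E8.5 and 0.466 ± 0.0274 at E14.5 (SD, n = 3), and the libraries of these stages do not overlap. It was highest at E9.5 with 0.51 ± 0.0166, where Timp1, with 888 exonic bases, had 11.9 CPM per kb. From E10 to E11.5 it lay between 0.335 and 0.358, and at E12.5 it was 0.33 ± 0.0211. The ratio is of transcripts and says nothing of active protein.

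Further genes of the system were followed as lists, all for E14.5 against E8.5 and beside the same backgrounds of 41.1% higher and 33.5% lower. Of 6 other inhibitors and clearance genes 5 rose, among them Sparc, a collagen-binding matrix protein, by 2.65 and Reck, a membrane inhibitor of metalloproteinases, by 1.85 (adjusted p = 3.47e-23 and 1.86e-16), and Lrp1, the receptor that clears protease complexes, did not pass (0.32, adjusted p = 0.112). All 7 ADAMTS-like proteins, relatives without a protease domain, rose, Adamtsl3 most, by 8.14 from 0.0429 CPM at E8.5, then Adamtsl5 by 6.88, Adamtsl1 by 5.13 and Papln by 2.86.

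Plasminogen activation had 5 tested genes of 8, and 4 rose: the activators Plau by 1.83 and Plat by 1.45, the activator receptor Plaur by 1.35 and the inhibitor Serpine2 by 1.70. Plg, the precursor itself, Serpinf2 and Klkb1 had too few counts for a test. Of the 4 convertases and inducers, Pcsk5 (1.55), Pcsk6 (1.16) and Furin (0.38) rose and Bsg, an inducer of metalloproteinases, fell by 0.43 (adjusted p = 0.00279). Among 14 matrix substrates 9 rose, led by elastin, Eln, with 6.95 and Col1a1 with 6.70. The laminin chain Lama1 fell by 2.95 and the cartilage collagen Col2a1 by 0.71 (adjusted p = 4.71e-16 and 6.83e-05), and the basement membrane collagens Col4a1 and Col4a2 (0.00 and -0.09) and brain-type Bcan (0.56) did not pass.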

How the data were processed

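The deposited table holds raw read counts per gene, whole numbers that the authors did not normalize, per the file headers. The submitters' processing notes name cutadapt 1.9.1, HISAT2 2.0.1, HTSeq 0.6.1 and GRCm38, and the sources used here give neither annotation release nor strand setting. The deposited exonic lengths, another column per the file headers, served for levels per kb. Symbols came from GENCODE M21 (55141 of 55401 genes, 260 without one). Columns were tied to stages by name, and the letters a, b and c only name libraries.

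Genes were filtered with filterByExpr, scaled by TMM (factors 0.797 to 1.175) and fitted with edgeR 4.0.16 (R 4.3.3) as 1 quasi-likelihood model over 33 libraries, with 22 residual degrees of freedom and Benjamini-Hochberg adjustment over 20073 genes at 0.05. Every adjusted p in the text is from this test, unless another fit or setting is named with it. SE was taken from the fold change and the F statistic. CPM use the TMM-scaled library sizes. Every member may be named. Values in every library are given for the Timp genes and for members of at least 5 CPM in their highest stage, and listed genes by size of change. Members and lists were chosen with earlier results of these data known. The values of 1 listed gene are not reported here. The fit was tested on simulated data. No pair of libraries within a stage agreed within sampling noise (lowest chi-square per gene 1.85). Alternatives were DESeq2 1.42.0, other scalings and filters, removal of the gene length trend, a replicate block, other sets of libraries and each library left out.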

Additional observations from a re-analysis of the deposited data

How the results depend on the processing

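The 35 genes that differed over the stages stayed 35 with each library left out, and the members higher stayed within 26 to 28, 13 to 16, 15 to 18 and 22 to 24 for E14.5 against E8.5, E10.5 against E8.5, E12.5 against E10.5 and E14.5 against E12.5. The members lower ran from 3 to 4, 4 to 8, 0 to 1 and 5 to 7. With library totals alone the members lower were 1, 4, 0 and 4 in these contrasts, in place of 3, 7, 1 and 7. Among all 20073 tested genes those lower were then 4274, 2729, 2215 and 4338, in place of 6731, 4272, 3444 and 5736. With the gene length trend removed, the E10.5 against E8.5 contrast had 12 members lower, and 6595 of all tested genes. At E12.5 against E10.5, 2 were lower with no filter on low counts, with the libraries of E12 and its neighbours E11.5 and E13.5 left out, or with only the libraries compared. Adamts19 reversed to 0.13 at E14.5 against E8.5 with library totals alone and to -0.37 at E10.5 against E8.5 with the length trend removed. With E11.5 in place of E12.5, Adamts19 reversed against E10.5 (-0.12), and Adamts20 (0.86), Adamts6 (0.41) and Mmp9 (-0.19) reversed at E14.5. The causes were not tested. Share of calls higher among all genes at E14.5 against E8.5 was 55%, 71.3% with library totals alone and 47.4% with the length trend removed. A replicate block on the library letters gave 27 higher and 3 lower, 15 and 6, 16 and 1, and 23 and 7 in the 4 contrasts. The letters do not pair the libraries: same-letter correlations lay between -0.069 and 0.075, and 6 of 24 libraries correlated best with their own letter. Depth limits the members of the chromosome 9 cluster, of which only Mmp3 passed the filter. With no filter 45 members were tested, 37 differed over the stages, and 30 were higher at E14.5 than at E8.5, Mmp8, Mmp13 and Adamts9 having been added.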

Other observations

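Adamts20, Adamts6, Adamts19 and Adamts10 fell from E12.5 to E13.5 and rose from E13.5 to E14.5. Means were 76.6, 19.5 and 57.2 CPM for Adamts20, 46.6, 17.1 and 45.1 CPM for Adamts6, 22.9, 8.12 and 13.3 CPM for Adamts19, and 205, 124 and 361 CPM for Adamts10. The log2 steps down were -1.97, -1.44, -1.49 and -0.72 and the steps up 1.55, 1.39, 0.71 and 1.54 (edgeR adjusted p from 2.28e-07 to 2.26e-13 down and from 8.47e-07 to 5.43e-14 up). With the gene length trend removed the steps were -1.82, -1.32, -1.21 and -0.56, then 1.49, 1.35, 0.54 and 1.46. Without library c of E13.5 they were -1.78, -1.22, -1.46 and -0.76, then 1.36, 1.17, 0.68 and 1.58. Adamts19 stayed below its E12.5 level at E14.5. From E12.5 to E13.5 Adamts2, Adamts5 and Adamts9 rose by 2.27, 1.36 and 0.67. At E11.5 the libraries read 31.6, 32.8 and 30.4 CPM for Adamts20 and 30.7, 34.9 and 36.2 CPM for Adamts6. They read 15.4, 14.2 and 16.2 CPM for Adamts19 and 161, 172 and 177 CPM for Adamts10. For each of these genes the E12.5 libraries lay above those of E11.5 and of E13.5. The dip, which thus starts from a high at E12.5, was noticed in the data, and its cause was not tested. The share of all tested genes with such steps is not given here.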
